A study of Mus musculus with 4 samples.

Results

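Clathrin-mediated endocytosis draws membrane receptors and their cargo into cells through clathrin-coated pits. Transcript levels of its core coat genes were measured by single-cell RNA sequencing of mouse aorta. The genes were chosen by symbol from a list of 10: the clathrin chains Cltc, Clta and Cltb, the AP2 adaptor subunits Ap2a1, Ap2a2, Ap2b1, Ap2m1 and Ap2s1, and the clathrin adaptors Picalm and Dab2. All 10 were found among the 32285 features of the count matrices. The study made 1 library from each of 4 groups of aortas, with WT and LysM-DKO mice fed a normal diet and WT/ApoE-/- and LysM-DKO/ApoE-/- mice fed a western diet. Values for single libraries are given in that order throughout. The series title concerns epsins, endocytic adaptors encoded by Epn1 and Epn2, but the labels do not spell out DKO. LysM is lysozyme M, whose locus is widely used to drive Cre recombinase in myeloid cells. The age and number of animals behind each library are not given in the sources used here.

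The clathrin coat is built from triskelia of heavy chains (Cltc), each carrying a light chain (Clta or Cltb). AP2 links this coat to the plasma membrane. Its large alpha subunit (Ap2a1 or Ap2a2) and beta subunit (Ap2b1) hold a medium mu subunit (Ap2m1) that reads tyrosine-based sorting signals and a small sigma subunit (Ap2s1) that helps to read dileucine signals. PICALM binds phosphoinositides, clathrin and the vesicle fusion proteins that it brings into pits. DAB2 is a cargo adaptor for receptors of the LDL receptor family and for integrins, and the epsins are cargo adaptors of the same pits.

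Promoter sequences are shown for Dab2, the gene whose level differed most between cell classes, and for Picalm, an adaptor seen in every class. They are RefSeq promoter windows on GRCm38.p6, from 250 bases before to 50 bases after an annotated start, written 5′ to 3′ with every CG dinucleotide in capitals. The motif searched was CG, which reads the same on both strands. RefSeq gave Dab2 a pair of starts, at chr15:6299539-6299838 (plus strand) and chr15:6386498-6386797 (plus strand), and Picalm 1 start, at chr7:90129963-90130262 (plus strand).
Dab2 upstream start: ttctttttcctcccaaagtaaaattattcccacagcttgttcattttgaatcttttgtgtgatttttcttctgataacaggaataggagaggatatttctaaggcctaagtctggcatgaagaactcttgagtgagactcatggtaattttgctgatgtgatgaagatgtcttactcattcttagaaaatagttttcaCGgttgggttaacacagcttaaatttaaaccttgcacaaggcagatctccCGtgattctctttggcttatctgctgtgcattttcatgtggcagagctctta
Dab2 downstream start: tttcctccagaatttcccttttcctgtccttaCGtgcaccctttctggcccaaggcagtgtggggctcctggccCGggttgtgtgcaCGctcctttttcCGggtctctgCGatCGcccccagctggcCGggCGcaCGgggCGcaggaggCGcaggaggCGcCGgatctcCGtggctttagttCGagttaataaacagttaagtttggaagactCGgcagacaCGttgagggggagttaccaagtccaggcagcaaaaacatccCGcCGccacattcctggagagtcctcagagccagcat
Picalm: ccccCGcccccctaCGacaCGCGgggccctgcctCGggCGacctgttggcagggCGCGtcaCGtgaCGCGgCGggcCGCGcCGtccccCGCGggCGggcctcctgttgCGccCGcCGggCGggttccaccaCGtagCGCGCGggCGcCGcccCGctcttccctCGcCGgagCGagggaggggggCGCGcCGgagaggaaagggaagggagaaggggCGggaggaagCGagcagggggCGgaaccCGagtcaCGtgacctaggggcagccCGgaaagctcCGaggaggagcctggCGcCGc
The upstream Dab2 window held 2 CG and the downstream window 19, against a median of 7 over 32851 RefSeq promoters of the same 300 bases. The Picalm window held 44. Of all promoters, 23.3% had as few CG as the upstream Dab2 window or fewer, 73.5% as few as the downstream one and 98.1% as few as Picalm. All 10 genes matched this table, with 12 windows in all. Those of the other genes held 14 to 39 CG, apart from an upstream Clta window with 3. Counts from a 3' kit do not tell which start a transcript came from, so the windows describe the loci only.

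On GRCm38 (GENCODE M21), Dab2 lies on chromosome 15 from 6299788 to 6440712 and Picalm on chromosome 7 from 90130213 to 90213465, both on the plus strand. Cltc lies on chromosome 11 from 86694351 to 86757565 on the minus strand, Clta on chromosome 4 from 44004452 to 44032846 on the plus strand, and Cltb on chromosome 13 from 54592401 to 54611344 on the minus strand. Of the AP2 genes, 3 are on chromosome 7: Ap2a1 from 44900373 to 44929496 on the minus strand, Ap2a2 from 141562173 to 141633011 on the plus strand, and Ap2s1 from 16738410 to 16749294 on the plus strand. Ap2b1 is on chromosome 11 from 83299024 to 83405035 and Ap2m1 on chromosome 16 from 20535478 to 20544909, both on the plus strand. On the opposite strand, Ap2a1 overlaps Fuz and Ap2a2 overlaps Gm16982.

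The libraries held 13831, 15826, 29724 and 11414 barcodes with 51281643, 50662515, 67450979 and 62510744 unique molecular identifiers (UMIs). Of these barcodes, 7758, 8230, 13744 and 8133 reached 1000 UMIs with no more than 10% of them mitochondrial, and 84.6 to 97.0% of those met a class rule based on a few marker transcripts. A class was assigned in the order macrophage, B, T, endothelial, fibroblast and smooth muscle. The macrophage class held 92, 208, 939 and 135 barcodes. Between 7.59 and 28.4% of kept barcodes met more than 1 rule, and pairs of libraries shared 9 to 41 barcode sequences. The endothelial class does not stand for clean endothelial cells. Its summed smooth muscle markers were at 18574 to 26131 CPM (UMIs of a gene scaled to 1000000 UMIs of its class), against 151 to 798 CPM for its endothelial markers, and 71.7 to 87.8% of its barcodes met a further class rule. Macrophage barcodes carried 4054 to 5570 CPM of macrophage markers beside 4741, 4939, 9021 and 5266 CPM of smooth muscle markers, and 37.0 to 63.9% of them met a further rule. In macrophages Epn1 was at 81.7, 54.5, 52.4 and 42.7 CPM and Epn2 at 35.6, 33.6, 33.2 and 15.7 CPM, so a 3' count detected both genes in the libraries labelled LysM-DKO. Xist was at 950.2 and 956 CPM over the classes of the normal diet libraries and at 0.689 and 0.554 CPM on western diet, where the Y-linked Ddx3y was at 116 and 123 CPM. Diet was thus joined with sex as well as with the ApoE genotype.

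Most of the coat genes were higher in macrophages than in the mean of the other classes. Cell classes were compared with edgeR's quasi-likelihood test on UMIs summed per library and class, with the 4 libraries as replicates of a class, and each class was set against the mean of the other 5. Among the 10 genes, 8 were higher in macrophages at a Benjamini-Hochberg adjusted p under 0.05, and none was lower. Of all 13819 genes tested, 21.1% were higher and 22.4% lower in macrophages. No gene of the 10 was lower at an unadjusted p under 0.05, or by DESeq2. The median log2 difference was 0.98 over the 10 genes and -0.15 over all genes. Scaling by total UMIs alone moved the median of all genes to -0.29 and left 7 of the 10 higher and 1, Cltb, lower.

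**Figure D1:**
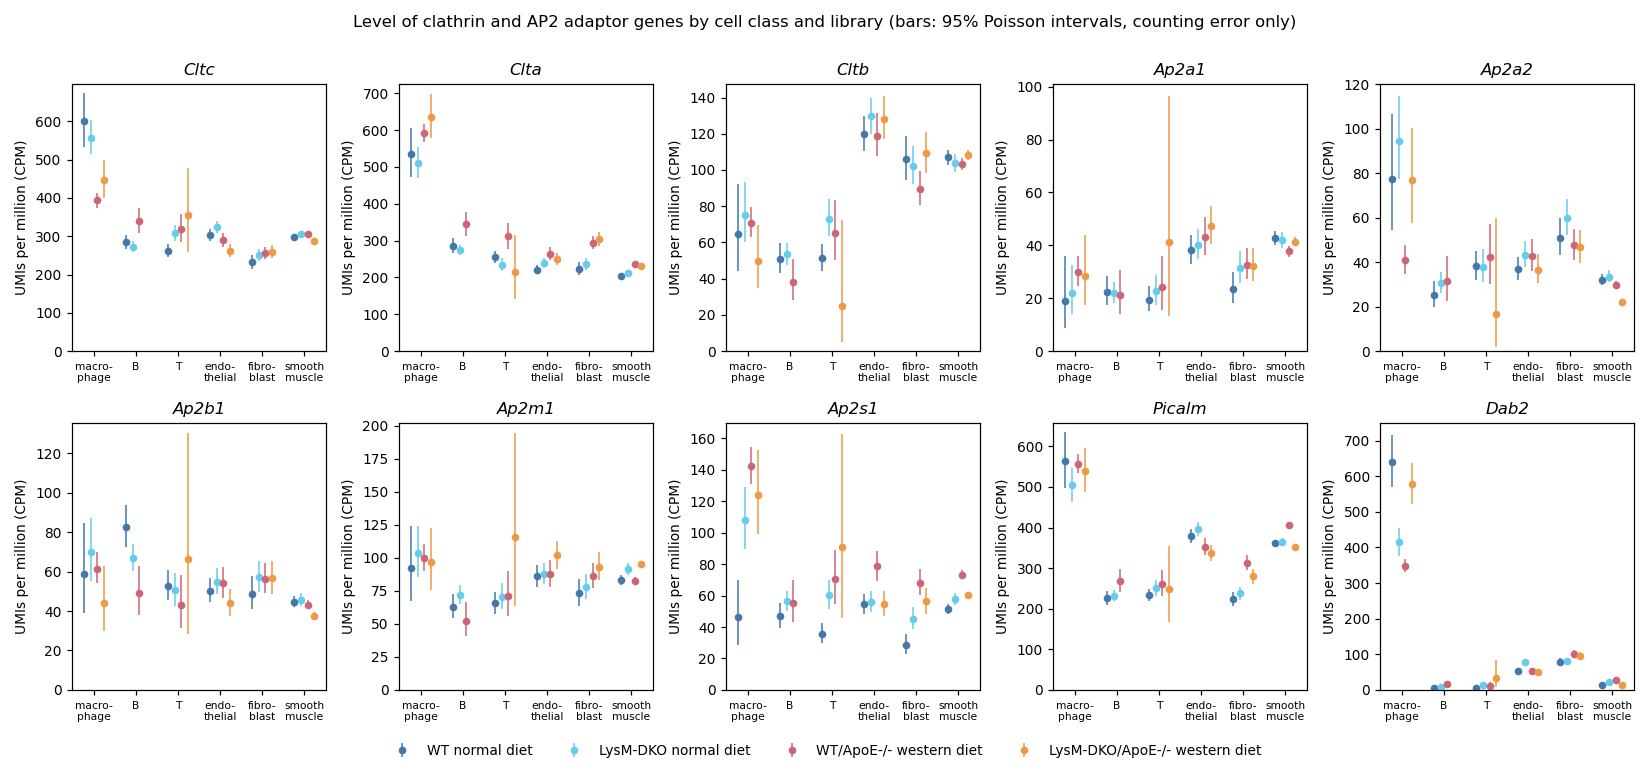
CPM of each gene (linear vertical axes starting at 0) in each cell class, with 1 point per library and 95% Poisson intervals for counting error. Macrophage points lie above those of every other class for Cltc, Clta, Picalm and Dab2, and B cells of LysM-DKO/ApoE-/- (14 barcodes) are left out.

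The heavy chain gene Cltc was at 601, 558, 393 and 447 CPM in macrophages. Its ranges elsewhere were 262 to 356 in T cells, 272 to 341 in B cells, 287 to 306 in smooth muscle, 261 to 324 in the endothelial class and 232 to 259 in fibroblasts. All 4 macrophage values exceeded every other class value, and the macrophage mean was 1.60 times that of T cells, the next class. The log2 difference of macrophages from the other classes was 0.93 ± 0.10 (SE of the fit over 23 class and library sums, edgeR adjusted p = 5.82e-08). The T, B, smooth muscle and endothelial ranges overlapped in turn, while fibroblasts lay below the endothelial class without overlap.

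The light chain genes had their highest levels in different classes. Clta was at 536, 511, 591 and 635 CPM in macrophages, above the 203 to 345 CPM of all other sums, with a log2 difference of 1.28 ± 0.09 (SE, edgeR adjusted p = 1.54e-10). Cltb was at 64.9, 75.4, 70.8 and 49.9 CPM in macrophages, where its difference of -0.18 ± 0.13 did not pass the test (edgeR adjusted p = 0.306). Its highest level was in the endothelial class, at 119 to 130 CPM, followed by smooth muscle at 103 to 108 and fibroblasts at 89.8 to 109 CPM. Smooth muscle and fibroblasts overlapped for Cltb, and the endothelial class lay above both.

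The share of Clta among UMIs of both light chain genes describes this shift within each library. It was 89.2, 87.1, 89.3 and 92.7% in macrophages, 65.5 to 69.6% in smooth muscle, 64.8 to 68.9% in the endothelial class and 67.8 to 76.6% in fibroblasts. B cells (83.7 to 90.0%) and T cells (76.2 to 89.7%) overlapped macrophages. The T cell overlap rested on LysM-DKO/ApoE-/- (89.7%, 29 UMIs in 33 barcodes), and the other 3 T cell values, 83.2, 76.2 and 82.7%, lay below every macrophage value. The macrophage range did not overlap the fibroblast, endothelial or smooth muscle range in any of the barcode and class settings tried, where its lowest value was 84.5%. With 4 pairs of libraries an exact sign-flip test cannot go below p = 0.125, so no test was made. Because each gene's detection can differ, the share is read between classes only, not as the protein ratio of the light chains.

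**Figure D2:**
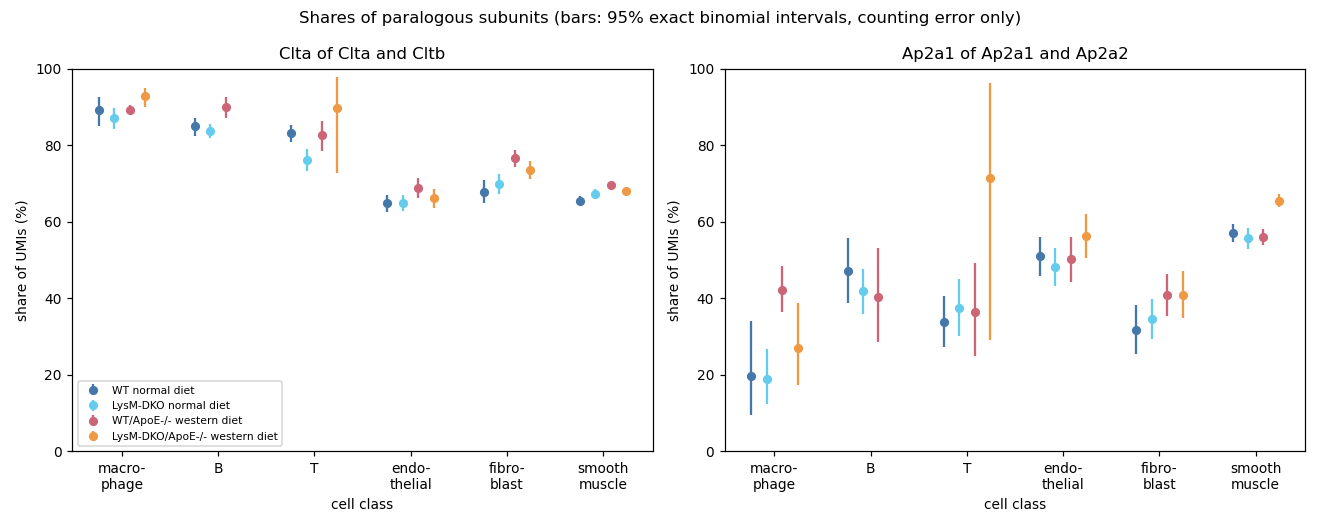
Share of UMIs (vertical axis, %) from Clta among both light chain genes (left) and from Ap2a1 among both alpha subunit genes (right), by class, with 1 point per library and exact 95% binomial intervals. The Clta share of macrophages, 87.1 to 92.7%, lies above that of fibroblasts, the endothelial class and smooth muscle.

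Among the AP2 subunits, 4 of 5 were higher in macrophages. Ap2a2, an alpha subunit, was at 77.5, 94.5, 40.9 and 76.9 CPM in macrophages and at 21.9 to 33.5 CPM in smooth muscle, with a macrophage difference of 1.08 ± 0.16 (SE, edgeR adjusted p = 9.22e-06). Its WT/ApoE-/- macrophage value lay below all 4 fibroblast values (46.6 to 59.8 CPM) and the other 3 macrophage values above them. Ap2a1, the paralogous alpha subunit, was at 18.8, 21.8, 29.9 and 28.5 CPM in macrophages, with a difference of -0.12 ± 0.12 (edgeR adjusted p = 0.930). It was higher in smooth muscle (37.7 to 42.8 CPM, 0.52 ± 0.09, edgeR adjusted p = 6.18e-05) and in the endothelial class (38.2 to 47.3 CPM, 0.46 ± 0.09, edgeR adjusted p = 4.37e-04). With barcodes of more than 1 class left out, endothelial Ap2a1 was at 26.5, 33.4, 54.1 and 38.2 CPM, on 11 to 27 UMIs a library. These values lay below smooth muscle of the same library except in WT/ApoE-/-.

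The Ap2a1 share of the alpha subunit UMIs was 19.6, 18.8, 42.2 and 27.0% in macrophages. In smooth muscle it was 57.1, 55.6, 56.0 and 65.4%, above the macrophage share in every library. These shares rested on 46 to 277 UMIs in macrophages. The macrophages of the library with the highest share, WT/ApoE-/-, also had the most smooth muscle marker RNA, and with barcodes of more than 1 class left out their share was 44.4%. The fibroblast range of 31.6 to 40.8% lay below the endothelial range of 48.1 to 56.4%. With barcodes of more than 1 class left out these ranges were 28.8 to 33.8% and 31.7 to 47.6%, and they overlapped.

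The sigma subunit gene Ap2s1 was at 46.1, 108, 142 and 124 CPM in macrophages, with a difference of 1.02 ± 0.13 (SE, edgeR adjusted p = 1.26e-06). Its WT normal diet value was the lowest of the 4 libraries, and it was also the lowest library in every other class, down to 28.8 CPM in fibroblasts. In that library the endothelial class (54.4 CPM), smooth muscle (51.5) and B cells (47.0) lay above macrophages. The macrophage range of Ap2s1 overlapped that of every other class. The mu subunit gene Ap2m1 was at 92.1, 104, 99.7 and 96.9 CPM in macrophages, the narrowest spread of the AP2 genes there. Its difference was 0.45 ± 0.09 (edgeR adjusted p = 2.02e-04), and its macrophage range overlapped the endothelial range of 86.1 to 102 CPM. Ap2b1, the beta subunit, reached 0.33 ± 0.12 (edgeR adjusted p = 0.0309) in macrophages, from 58.6, 69.9, 61.6 and 44.2 CPM. That call was lost under scaling by total UMIs alone (adjusted p = 0.210), with barcodes of more than 1 class left out (0.410), without a library block (0.0823), without a low-count filter (0.222), and without the LysM-DKO normal diet (0.201) or WT/ApoE-/- library (0.0660).

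Picalm was at 563, 504, 558 and 540 CPM in macrophages, 353 to 407 in smooth muscle, 336 to 396 in the endothelial class, 224 to 313 in fibroblasts, 233 to 261 in T cells and 226 to 269 in B cells. Macrophages lay above all other classes (1.03 ± 0.08, SE, edgeR adjusted p = 1.02e-09). Smooth muscle and the endothelial class overlapped each other and lay above the fibroblasts, T cells and B cells, which overlapped among themselves. The smooth muscle difference of 0.21 ± 0.08 passed the test (edgeR adjusted p = 0.0392).

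Dab2 had the sharpest class pattern. It was at 639, 414, 349 and 577 CPM in macrophages, 77.7, 80.8, 101 and 94.5 in fibroblasts, and 52.8, 77.2, 51.7 and 49.8 in the endothelial class. Smooth muscle was at 14.3, 22.9, 27.3 and 13.8 CPM. The macrophage mean was 5.59 times the fibroblast mean, and the ranges of macrophages, fibroblasts, the endothelial class and smooth muscle did not overlap. Fibroblasts and the endothelial class did overlap with barcodes of more than 1 class left out, when fibroblasts were at 95.7, 91.1, 129 and 114 CPM. T cells (6.08 to 33.1 CPM) overlapped smooth muscle, and the T cell library at 33.1 CPM held only 33 barcodes. B cells were at 5.34, 9.18 and 15.7 CPM in the 3 libraries with at least 20 of them. The macrophage difference was 4.46 ± 0.18 (SE, edgeR adjusted p = 1.55e-14) and the fibroblast difference 1.28 ± 0.19 (edgeR adjusted p = 1.26e-05).

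Barcode shares gave the same order for macrophages and lymphocytes. After thinning each barcode to 1000 UMIs, 47.8, 30.3, 23.0 and 48.9% of macrophage barcodes had a Dab2 UMI (79.3, 70.7, 47.4 and 79.3% before thinning). In B cells, which serve as a level from free RNA and mixed barcodes, it was 0.388, 1.07 and 1.39% (1.81, 3.48 and 2.58% before thinning) in the 3 libraries used. Of these B barcodes, 63.6, 69.4 and 21.3% met a further class rule. With such barcodes left out, B cell Dab2 was at 4.42, 7.01 and 9.41 CPM. Median depth in those libraries was 4708.5, 4715 and 2796 UMIs for macrophages and 2952, 3518 and 1924 for B cells. Fibroblasts were at 7.80 to 14.4% after thinning. Smooth muscle was at 1.71, 3.04, 3.34 and 1.36% after thinning (7.51, 8.23, 8.74 and 8.92% before), above the B cells of the same library in each of the 3 libraries used.

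In the endothelial class the Dab2 difference was 0.46 ± 0.20 and did not pass the test (edgeR adjusted p = 0.0632). With barcodes of more than 1 class left out, 51 to 249 endothelial barcodes a library remained and Dab2 there was at 136, 125, 119 and 160 CPM. These values lay above those of fibroblasts, counted the same way, in 3 of 4 libraries. The endothelial difference was then 1.74 (edgeR adjusted p = 9.35e-07), and with doubled marker limits it was 1.23 (edgeR adjusted p = 1.02e-04).

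**Figure D3:**
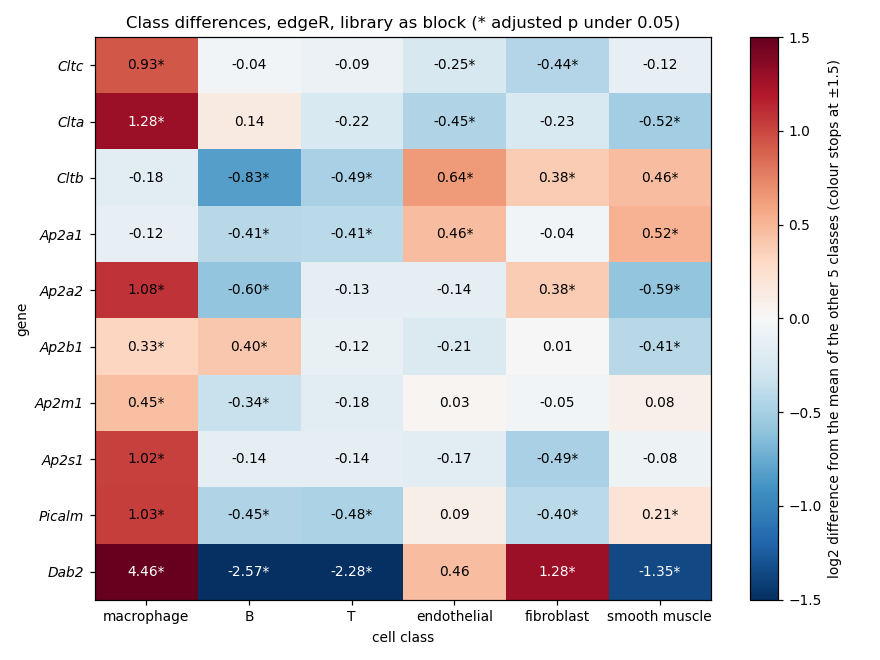
Log2 difference of each gene (rows) in each cell class (columns) from the mean of the other 5 classes, with colour from blue (lower) to red (higher) and an asterisk for an edgeR adjusted p under 0.05. Dab2 in macrophages, at 4.46, is beyond the end of the colour scale, and Cltb and Ap2a1 alone carry no asterisk in the macrophage column.

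The other classes showed smaller and mixed differences. In B cells 1 gene was higher (Ap2b1, 0.40 ± 0.12) and 6 were lower, against 26.7 and 28.2% of all genes. The B cell levels of Ap2b1 were 82.7, 67.0 and 49.3 CPM, which overlapped macrophages. In T cells none was higher and 4 were lower (Dab2, Cltb, Picalm and Ap2a1), against 26.4 and 30.1% of all genes, and none was higher at an unadjusted p under 0.05 or by DESeq2. At an unadjusted p under 0.05, 5 were lower in T cells, and 6 by DESeq2. In the endothelial class 2 were higher (Cltb and Ap2a1) and 2 lower (Clta and Cltc), against 28.2 and 18.8%. Scaling by total UMIs alone made that 4 higher and 1 lower and moved the endothelial median of all genes from 0.06 to 0.20. Fibroblasts had 3 higher (Dab2, Cltb and Ap2a2) and 3 lower (Ap2s1, Cltc and Picalm), against 26.1 and 24.7%. Without the WT normal diet library, 1 was higher in fibroblasts and none in B cells, and without the LysM-DKO normal diet library 3 were lower in B cells. Smooth muscle had 3 higher (Ap2a1, Cltb and Picalm) and 4 lower (Dab2, Ap2a2, Clta and Ap2b1), against 28.3 and 25.7%. Of the counts outside macrophages, the 6 lower in B cells stood furthest from the share of all genes.

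Further lists of uptake and sorting genes were read against the shares of all genes in macrophages, 21.1% higher and 22.4% lower. Of 43 listed genes of coated pit initiation, scission and uncoating, 39 were tested, and 17 were higher and 7 lower, with a median log2 difference of 0.25. The examples with the largest differences were Arrb2, a beta-arrestin (4.11), and Reps2, a partner of EPS15 family and Ral signalling proteins (4.02). At the other end stood Sgip1, a membrane-binding FCHO relative (-1.33), and Hip1r, which ties coats to actin (-1.25). Arrb2 was at 81.7, 66.3, 102 and 130 CPM in macrophages and at 2.92 to 4.25 CPM in smooth muscle. Adaptors of internal membranes (AP1, AP3 and GGA) had 9 of 16 tested genes higher, led by Ap1b1 (1.83) and Ap1g2 (1.59), and 1 lower, Ap3m1 (-0.41). Among 17 receptors taken up through coated pits, 9 were higher, led by the mannose receptor Mrc1 (9.13, as fitted against classes with few or no UMIs) and the scavenger receptor Stab1 (5.89), and 4 lower, Vldlr (-1.01) and Igf2r (-0.66) being the lowest. Genes of caveolae, a clathrin-free route, went the other way: of 8 tested, 6 were lower in macrophages and none higher (Cavin3 at -1.33 and Ehd2 at -1.22), and all 8 were higher in the endothelial class and in smooth muscle, where 28.2 and 28.3% of all genes were higher. The receptors were not particular to macrophages: in the endothelial class 10 of the 17 were higher and 2 lower, against 28.2 and 18.8% of all genes.

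Macrophage barcodes were then split by transcripts that are no member of the gene list. Lyve1 and Folr2 mark resident arterial macrophages, and Trem2 and Gpnmb mark lipid-associated (foamy) macrophages. Barcodes with at least 2 UMIs of the first pair and under 2 of the second numbered 34, 64, 21 and 39, and the reverse 9, 16, 402 and 45. Dab2 was at 971, 681, 1314 and 1345 CPM in the Lyve1 and Folr2 barcodes and at 410, 223, 351 and 301 CPM in the Trem2 and Gpnmb barcodes. The log2 ratios between these sets were 1.22 (0.67 to 1.86), 1.59 (1.04 to 2.24), 1.91 (1.58 to 2.22) and 2.16 (1.80 to 2.53), where brackets give 95% intervals for counting error. Every library had more Dab2 in the Lyve1 and Folr2 barcodes, and the lowest of these 4 values lay above the highest of the other 4. Barcodes with at least 2 UMIs of each pair were in neither set. They numbered 4, 10, 66 and 8, with Dab2 at 923, 858, 392 and 737 CPM.

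Of the other genes, 3 had the same sign as Dab2 in every library, of which Cltc and Ap2a2 did not overlap between the sets, and the sigma subunit had the opposite sign. Cltc was at 713, 809, 629 and 668 CPM in Lyve1 and Folr2 barcodes and at 438, 421, 383 and 418 CPM in Trem2 and Gpnmb barcodes, with no overlap. Ap2a2 was at 126, 186, 123 and 203 against 41.0, 87.4, 39.6 and 25.8 CPM, also without overlap, on 3 to 76 UMIs per value. Cltb had the same sign in 4 of 4 libraries, at 83.9, 92.9, 95.8 and 50.8 against 41.0, 31.8, 67.3 and 48.7 CPM, but its ranges overlapped, and 3 of the 4 intervals of its ratio included 0. The Ap2a2 interval of the WT normal diet library also included 0 (-0.13 to 4.01). Ap2s1 was lower in the Lyve1 and Folr2 barcodes in 4 of 4 libraries, at 53.9, 107, 68.4 and 110 against 54.7, 143, 161 and 123 CPM, but all 4 intervals of its ratio reached 0. The other 5 genes had the same sign in 2 or 3 of 4 libraries. The sets were compared for the listed coat genes only. The share of all genes with the same sign in every library, or without overlap between the sets, was not computed. These counts therefore have no background to be read against.

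**Figure D4:**
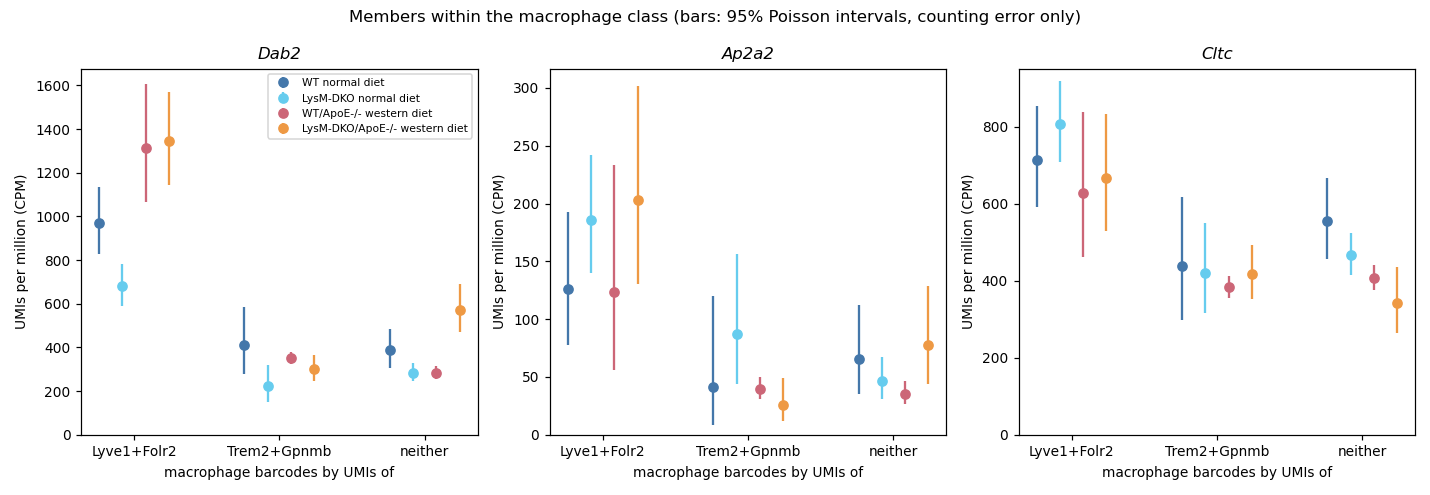
Dab2, Ap2a2 and Cltc (CPM, linear axes starting at 0) in macrophage barcodes that carry Lyve1 and Folr2, Trem2 and Gpnmb, or neither pair, with 1 point per library and 95% Poisson intervals. In every library the Lyve1 and Folr2 point lies above the Trem2 and Gpnmb point for all 3 genes.

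Genotype was compared within each diet, with 1 library on each side, and no test was made and only counting error is known. On normal diet, 2 of 9 genes with at least 50 UMIs in macrophages were at least 1.5-fold apart, against 19.5% of all genes. Dab2 was lower in LysM-DKO (414 against 639 CPM, log2 ratio -0.63, -0.84 to -0.41) and Ap2s1 higher (108 against 46.1 CPM, 1.20, 0.57 to 1.96). On western diet, 2 of 10 were past that fold, against 25.3% of all genes. Both were higher in LysM-DKO/ApoE-/-: Dab2 (577 against 349 CPM, 0.73, 0.56 to 0.89) and Ap2a2 (76.9 against 40.9 CPM, 0.92, 0.44 to 1.36). The shares of genes past the fold were close to the background on both diets. On normal diet, B cell markers in the macrophage class summed to 239 CPM in WT and 1235 in LysM-DKO, and erythroid markers to 197 and 4215 CPM. On western diet, fibroblast markers summed to 3979 CPM in WT/ApoE-/- and 969 in LysM-DKO/ApoE-/-. The part of these RNAs in the macrophage ratios was not tested. Over all macrophage barcodes Cltc, Clta and Picalm differed little between genotypes, with log2 ratios from -0.16 to 0.19 on both diets. With barcodes of more than 1 class left out, normal diet Cltc was at 517 CPM in WT and 689 in LysM-DKO. Clta (573 and 587 CPM) and Picalm (556 and 578 CPM) stayed close there. On western diet the Picalm ratio was -0.40 (-0.67 to -0.15) within Trem2 and Gpnmb barcodes and 0.07 (-0.38 to 0.54) within Lyve1 and Folr2 barcodes.

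The Dab2 genotype ratio depended on which macrophage barcodes were counted. Lyve1 and Folr2 barcodes made up 37.0, 30.8, 2.24 and 28.9% of macrophage barcodes, and Trem2 and Gpnmb barcodes 9.78, 7.69, 42.8 and 33.3%. On western diet, the ratio was 0.03 (-0.34 to 0.42) within Lyve1 and Folr2 barcodes, -0.22 (-0.53 to 0.08) within Trem2 and Gpnmb barcodes, and 1.01 (0.69 to 1.31) within barcodes of neither pair, whose median depth was 1894 UMIs in WT/ApoE-/- and 3992 in LysM-DKO/ApoE-/-. On normal diet it was -0.51 (-0.82 to -0.20), -0.88 (-1.68 to -0.09) and -0.45 (-0.84 to -0.04). Barcodes with at least 2 UMIs of each pair had Dab2 at 923, 858, 392 and 737 CPM. With barcodes of more than 1 class left out, macrophage Dab2 was at 651, 603, 462 and 615 CPM, and the ratios were -0.11 on normal diet and 0.42 on western diet. Dissociation stress genes summed to 17824, 14270, 9165 and 11871 CPM in macrophages, in the same order of libraries as Dab2 on normal diet and on western diet. The part of these stress genes in the Dab2 ratios was not tested.

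**Figure D5:**
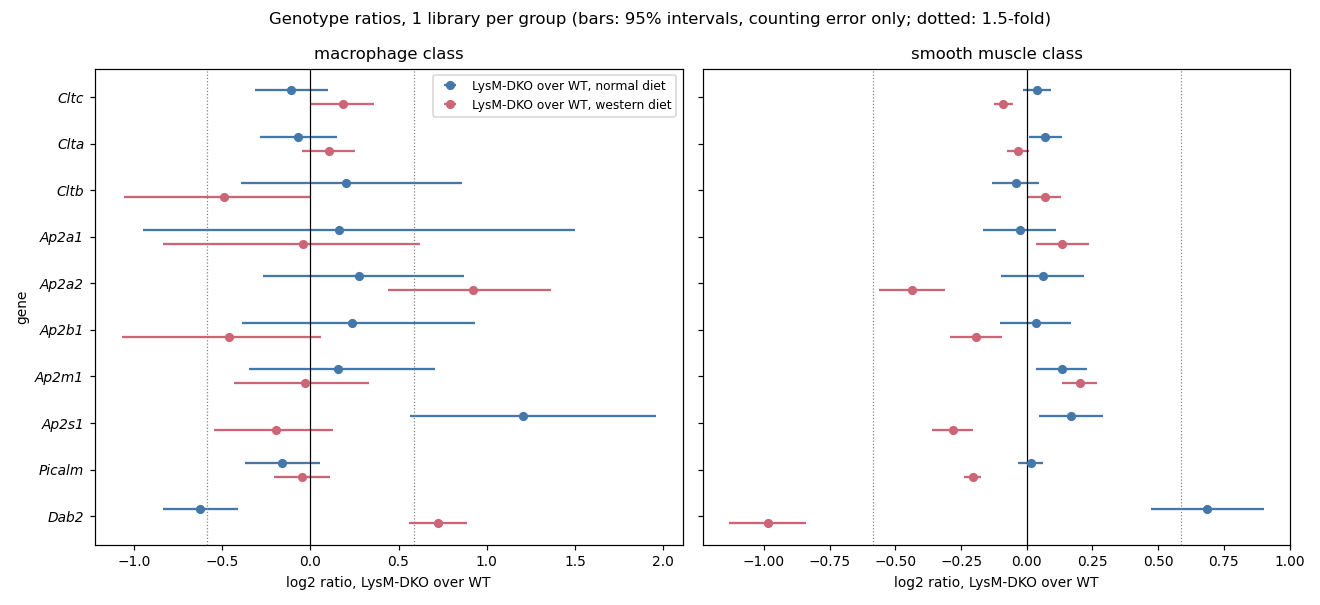
Log2 ratio of LysM-DKO over WT (horizontal axis) for each gene in macrophages and in smooth muscle, on normal (blue) and western diet (red), 1 library per group, with 95% intervals for counting error and dotted lines at 1.5-fold. Dab2 lies at -0.63 and 0.73 in macrophages and at 0.69 and -0.99 in smooth muscle.

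In smooth muscle, the class with the most UMIs, 9 of the 10 genes were within 1.5-fold between genotypes on each diet. Dab2 was the exception, higher in LysM-DKO on normal diet (22.9 against 14.3 CPM, log2 ratio 0.69, 0.47 to 0.90) and lower on western diet (13.8 against 27.3 CPM, -0.99, -1.13 to -0.84). Of all genes, 10.7% and 16.9% were past that fold. T cells lay below smooth muscle for Dab2 in 3 of 4 libraries, at 6.08 to 13.8 CPM, and in LysM-DKO/ApoE-/- they were at 33.1 CPM, from 4 UMIs in 33 barcodes. Macrophage markers in the smooth muscle class summed to 42.6, 117, 71.2 and 15.6 CPM, with all 6 detected in each library, and fibroblast markers to 2338, 2648, 6958 and 2480 CPM. On each diet both sums were higher in the library with more Dab2, and their part in the Dab2 values was not tested. Ap2a2 was at 29.6 against 21.9 CPM on western diet, a log2 ratio of -0.44 (-0.56 to -0.31). The remaining 8 genes were between -0.28 and 0.20 on both diets.

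Western and normal diet libraries also differed in ApoE genotype, sex and software version, which cannot be told apart from diet. In WT macrophages 5 of 10 genes were past 1.5-fold, against 50.6% of all genes, and the median of all genes was itself at 0.28. Lower on western diet were Ap2a2 (-0.94, -1.44 to -0.36), Dab2 (-0.87, -1.05 to -0.69) and Cltc (-0.61, -0.79 to -0.42). Higher were Ap2s1 (1.60, 1.02 to 2.31) and Ap2a1 (0.59, -0.31 to 1.83), the latter from 9 UMIs on normal diet. Relative to the median gene, by median-ratio scaling, these became -1.21 for Ap2a2, -1.15 for Dab2, -0.89 for Cltc and 1.32 for Ap2s1. Ap2a1 then fell short of 1.5-fold. Lyve1 and Folr2 barcodes were 37.0% of WT macrophage barcodes on normal and 2.24% on western diet. Within them, in that order, Ap2a2 was at 126 and 123 CPM, Dab2 at 971 and 1314, and Cltc at 713 and 629. In Trem2 and Gpnmb barcodes these genes were at 41.0 and 39.6, 410 and 351, and 438 and 383 CPM. In barcodes of neither pair they were at 65.5 and 35.4, 388 and 284, and 554 and 408 CPM. The part of these shares in the ratios was not tested. In LysM-DKO macrophages 1 of 9 genes was past 1.5-fold, Ap2b1 at -0.65 (-1.31 to -0.04), against 29.8% of all genes. The Dab2 ratio there was 0.48 (0.28 to 0.67).

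The diet ratio of smooth muscle Dab2 had opposite signs in the genotypes. Western over normal diet, its log2 ratio was 0.94 (0.76 to 1.12) in WT, the single gene of 10 past 1.5-fold, against 26.1% of all genes. In LysM-DKO it was -0.73 (-0.92 to -0.55), and Ap2a2 was also past that fold at -0.62 (-0.76 to -0.47), 2 of 10 against 28.1% of all genes. In the smooth muscle class, erythroid markers summed to 13790 and 23542 CPM on normal diet and to 472 and 70.9 CPM on western diet. Chondrocyte markers were at 65.6 and 79.1 CPM on normal diet and at 572 and 253 CPM on western diet, and the part of both lists in these ratios was not tested. Ap2s1 was higher on western diet in WT smooth muscle (0.51, 0.41 to 0.61), WT fibroblasts (1.24, 0.88 to 1.62) and the WT endothelial class (0.53, 0.28 to 0.78). Each of these ratios rested on the WT normal diet library, in which Ap2s1 was lowest in every class. In LysM-DKO the same ratios were 0.06, 0.31 and -0.03.

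Genes whose levels ran closest to each of the 10 were sought over the 23 class and library sums, among 3269 genes with a mean of at least 50 CPM. Among those closest to Dab2 were Eps8 (Pearson r = 0.95) and Selenop (0.94). Clta ran closest to Atp6v1b2 (0.93), Cltc to Tnf (0.92), Picalm to Lrrfip2 (0.93), Cltb to Ptprs (0.94) and Ap2a1 to Prkar2a (0.95). The AP2 genes Ap2a2, Ap2s1, Ap2m1 and Ap2b1 ran closest to Ifi207 (0.88), Pfn1 (0.86), Ube2e3 (0.82) and Cebpg (0.70). Among the 10 themselves, r ranged from -0.46 for Clta with Ap2a1 to 0.76 for Cltc with Clta. Sums of 1 library share its depth and free RNA, and sums of 1 class share its cells, so these values only describe the pattern.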

How the data were processed

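Aortas were digested to single cells and sequenced with a 10x Genomics 3' v3.1 kit, 1 library per group, per the labels' protocols. The deposited matrices hold UMI counts per gene and barcode, made by the authors with Cell Ranger 6.0.1 (normal diet) and 6.1.2 (western diet), per the file headers. The submitters' processing notes name Cell Ranger 6.1.2, Seurat 4.1.0 and mm10.

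Barcodes of 1000 UMIs or more, no more than 10% of them mitochondrial, were classed by the first rule met: C1qa, C1qb and C1qc at least 5 UMIs (macrophage), Cd79a and Ms4a1 at least 2 (B), Cd3d, Cd3e and Trac at least 2 (T), Pecam1 and Cdh5 at least 2 (endothelial), Pdgfra and Serpinf1 at least 3 (fibroblast), Myh11 and Cnn1 at least 3 (smooth muscle). No doublet caller was run, and barcodes that met more than 1 rule were left out as an alternative. Counts were summed per library and class, and sums of fewer than 20 barcodes (B cells of LysM-DKO/ApoE-/-) were left out of tests, which left 23. CPM scale a gene's UMIs to the total of its class.

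Classes were compared with edgeR 4.0.16 (quasi-likelihood, TMM, filterByExpr, library as block, R 4.3.3) and DESeq2 1.42.0 as an alternative, with Benjamini-Hochberg adjustment over 13819 genes and a threshold of 0.05. On simulated counts for the macrophage comparison over 13819 genes, the test recovered 19.3% of genes changed 1.5-fold, 65.5% of those changed 2-fold and 95.2% of those changed 4-fold, and 1.77% of its calls were false. The simulation gave all classes the same profile apart from the changed macrophage genes, with no library effect and a fixed dispersion. The real classes differ more widely, so these rates hold for that setting only. Replicates of a class differ in genotype and diet. With library as block, the test's F value rests on the variation between sums that remains after class and library shifts are fitted over all 23 sums. SEs were taken from the log2 difference and that F value. They need not correspond to the p-value, and for Ap2a1 in macrophages they did not. No test was made between groups, including none of genotype over both diets together: log2 ratios add 0.5 UMIs to each count, and 95% intervals (exact binomial for ratios and shares, exact Poisson for levels) cover counting error only. Genes with at least 50 UMIs over both libraries were judged against 1.5-fold. Depth of the class sums ranged from 477498 to 3911134 UMIs in macrophages. Nearest genes used Pearson's r of log2(CPM + 1), leaving out genes of the class rules and mitochondrial and ribosomal protein genes, and 1 nearest gene and 1 overlapping gene are not reported here. All 10 genes are named, and of each further list the 2 highest and 2 lowest genes past the threshold. Gene locations came from GENCODE M21 by gene ID (99.8% of features matched). Other steps ran in python 3.11.15 with scipy 1.17.1, matplotlib 3.10.9, pandas 2.3.3 and numpy 2.4.6. The genes and lists were chosen with earlier results of these data known.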

Additional observations from a re-analysis of the deposited data

Results flagged for a closer look

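The values here were singled out because the intervals of both ratios lay apart from 0 with opposite signs in the diets or genotypes compared. With 1 library per group the difference between the ratios was not tested. Between genotypes, LysM-DKO over WT, the log2 ratio of Dab2 in macrophages was -0.63 on normal diet and 0.73 on western diet, and in smooth muscle 0.69 and -0.99. For Ap2s1 it was 0.65 and -0.28 in fibroblasts, and 0.17 and -0.28 in smooth muscle. Between diets, western over normal, the log2 ratio of Dab2 was -0.87 in WT and 0.48 in LysM-DKO macrophages, and 0.94 and -0.73 in smooth muscle. For Picalm in smooth muscle it was 0.17 and -0.048.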

How the results depend on the processing

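No paired analysis was possible because the labels give no replicate numbers that pair libraries. A fit of genotype over both diets, with 1 residual degree of freedom, was not run. Of 507 class differences recomputed under alternatives, 450 kept their direction and side of the threshold, 49 were no longer past it, 7 came past it and 1 changed sign. With barcodes of more than 1 class left out, Ap2a1 in macrophages moved from -0.12 to 0.36 (edgeR adjusted p = 0.130), and log2 ratios of western over normal diet changed sign for Ap2a1 in WT macrophages (-0.14), Ap2b1 in LysM-DKO macrophages (0.40) and Dab2 in the LysM-DKO endothelial class (0.36). Fewer barcodes enter this setting.

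Leaving out 1 library at a time gave 0 to 1 members higher and 3 to 6 lower in B cells, 1 to 4 lower in the endothelial class (4 without WT/ApoE-/-) and 1 to 3 higher in fibroblasts. Scaling by total UMIs alone gave 1 lower in macrophages, and 4 higher and 1 lower in the endothelial class. The endothelial lower count was also 1 without a low-count filter, without a library block, with up to 20% mitochondrial UMIs, with barcodes of more than 1 class left out and with class limits doubled. Doubled limits gave 0 higher in B cells.

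Counts past 1.5-fold in macrophages were, for genotype on normal diet, 1 without barcodes of more than 1 class and 0 with equal weight for each barcode (Ap2s1 at 0.47 and Dab2 at -0.50). On western diet the count was 1 without barcodes of more than 1 class or with doubled limits. For diet in WT it was 2 without barcodes of more than 1 class. For diet in LysM-DKO it was 2 with at least 2000 UMIs, with up to 20% mitochondrial UMIs or with median-ratio scaling, 3 without barcodes of more than 1 class or with equal weight, and 0 with doubled limits. In smooth muscle, doubled limits gave 0 for genotype on normal diet and 1 for diet in LysM-DKO, and up to 20% mitochondrial UMIs or equal weight gave 2 for diet in WT. The cause of these moves was not tested. Of 960 recomputed ratios, 859 moved by less than their counting error. Macrophage depth limits the ratios of Ap2a1, at 9 to 117 UMIs a library.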
